A study of Mus musculus with 6 samples.

Results

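MHC class II genes were followed in epithelial organoids of the mouse fallopian tube. The set held 7 genes: Cd74, H2-Aa, H2-Ab1, H2-Eb1, H2-DMa, H2-DMb1 and Ciita. Their probes were found by symbol, through the RefSeq transcript assigned to each array probe. The genes were chosen with earlier results of these data known. Together they had 12 probes, out of 34566 named probes for 23787 genes.

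MHC class II molecules carry peptides from the endosomes to the cell surface, where CD4+ T cells read them. H2-Aa and H2-Ab1 encode the alpha and beta chains of the I-A molecule, and H2-Eb1 encodes the beta chain of I-E. Cd74, the invariant chain, guards the new chains on their way to the endosome, H2-DMa and H2-DMb1 form the H2-M molecule that exchanges the invariant chain's remnant for a peptide, and Ciita is the coactivator that sets transcription of the whole group. Dendritic cells, macrophages and B cells make these genes constantly, while epithelial cells are known to make them mostly after interferon gamma, which switches on Ciita.

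Total RNA of 6 organoid cultures was hybridised to 6 one-colour Agilent arrays, 1 array per group, so that no difference between a pair of arrays has a replicate check. Pik3ca/Trp53 organoids carried Pik3caH1047R, an activating mutant of the catalytic PI3-kinase subunit, together with loss of Trp53, and the tumour-derived Pik3ca/Trp53 organoids were grown from the subcutaneous growths they formed, labelled adenocarcinoma. Apc/Trp53 organoids carried Apc580D, an allele of the Wnt pathway inhibitor Apc, with loss of Trp53, and the cyst-derived Apc/Trp53 organoids came from their subcutaneous growths, labelled cyst. The Trp53 loss organoids had no further named change, and the control organoids came from Trp53flox/flox mice and held the control vector pLKO.1. All cultures came from female fallopian tube and shared a serum-free medium that held EGF, Noggin, R-spondin1, Jagged-1, the ROCK inhibitor Y27632 and the GSK3 inhibitor CHIR-99021. The sources used here do not give the age of the mice, the way Trp53 was removed, or the strain and immune status of the animals that received the organoids.

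The level of a probe is given on the log2 scale, as its processed intensity relative to the 75th percentile of the array, so that 0 is the 75th percentile of all gene spots on that array. The error after ± is the scanner software's own error of the spot signal, combined over probes, and covers neither the culture nor the labelling. Each array carried 56605 different gene probes, and 45.4% to 51.0% of them were well above background. Of the 10 epithelial markers listed, among them Epcam, Krt8 and Pax8, all 10 were above background on each of the 6 arrays. The Trp53 probe was not well above background in Pik3ca/Trp53, cyst-derived Apc/Trp53 and Trp53 loss organoids, which were at least 34.8-fold, 48.2-fold and 44.6-fold lower than control. It was above background in tumour-derived Pik3ca/Trp53 organoids (-1.64, 5.72-fold lower than control) and in Apc/Trp53 organoids (-3.59, 22.2-fold lower), against 0.88 in control organoids. Here "at least" marks a bound, computed by raising a dim signal to the lowest signal well above background on its array, the floor. All arrays lay on 1 slide. Both arrays of organoids from subcutaneous growths and the control array lay in row 2, and the other 3 in row 1. Slide row therefore cannot be told apart from growth in the animal or from Trp53 loss against control. Both Apc/Trp53 arrays lay in column 1, both Pik3ca/Trp53 arrays in column 2, and Trp53 loss and control in column 4. Slide column thus cannot be told apart from the Pik3ca or Apc change.

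Of the 7 class II genes, 4 were above background on all 6 arrays (Cd74, H2-Ab1, H2-DMa and H2-DMb1), 1 on some (Ciita, on 4) and 2 on none (H2-Aa and H2-Eb1). By probe, 8 of 12 were above background on at least 1 array. The group did not move as a block. Cd74 was high in Pik3ca/Trp53 and cyst-derived Apc/Trp53 organoids, whereas H2-Ab1 was highest in tumour-derived Pik3ca/Trp53 organoids and lowest in Apc/Trp53 organoids. In bulk RNA, a larger share of cells with a transcript and more transcript per cell cannot be told apart.

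Ciita (16:10480014-10531064 in GRCm38.p6) had a level of -6.75 in tumour-derived Pik3ca/Trp53 organoids, not well above background. It had -3.08 ± 0.20 in Pik3ca/Trp53 organoids, -3.67 ± 0.21 in cyst-derived Apc/Trp53 organoids, -3.22 ± 0.17 in Apc/Trp53 organoids and -4.29 ± 0.31 in Trp53 loss organoids. In control organoids it had -5.47, again not well above background. The 4 measured levels formed an order in which no neighbours differed by more than 2 combined spot errors. Here and below only neighbours in such an order were compared, and arrays further apart in it can differ by more. These values come from 1 of the gene's 2 probes, since the other was dim on all 6 arrays.

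H2-Ab1 (17:34263227-34269418) is the I-A beta chain and had 4 probes. Averaged over them, its level was -0.39 ± 0.07 in tumour-derived Pik3ca/Trp53 organoids, -2.07 ± 0.10 in Pik3ca/Trp53, -1.81 ± 0.08 in cyst-derived Apc/Trp53, -4.39 ± 0.19 in Apc/Trp53, -2.33 ± 0.10 in Trp53 loss and -2.40 ± 0.10 in control organoids. The array of tumour-derived Pik3ca/Trp53 organoids stood above all others, by 1.42 over the next, and Apc/Trp53 stood below all others, 1.98 under control. Between them, cyst-derived Apc/Trp53 was 0.26 above Pik3ca/Trp53, just past 2 spot errors, and among Pik3ca/Trp53, Trp53 loss and control neighbours did not differ by that much. The range, 3.99 log2 units as measured, was the widest among the members above background on all arrays. Of its 4 probes, 3 were above background on all 6 arrays and the fourth, A_55_P2741874, was dim in Apc/Trp53 organoids. All 4 put tumour-derived Pik3ca/Trp53 highest and Apc/Trp53 lowest: at -0.15 and -4.55 for A_52_P683598, at 0.57 and -3.64 for A_55_P1962747, at 0.59 and -3.43 for A_55_P2146560, and at -2.59 and -5.93 for A_55_P2741874.

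H2-Aa (17:34282744-34287823), the alpha chain that pairs with the product of H2-Ab1, was read by 1 probe. That probe was not well above background on any array, with signals at -7.21 to -6.57. H2-Eb1 (17:34305867-34316674) also had 1 probe, dim on all arrays at -6.70 to -4.52, with the highest of these signals in control organoids. For neither gene can a difference between groups be given. The MHC haplotype of the strain is not given in the sources used here and the match of each probe to its alleles was not tested, so a dim probe does not show that the transcript is absent.

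Cd74 (18:60803849-60812652) had a level of 0.19 ± 0.14 in tumour-derived Pik3ca/Trp53 organoids, 1.69 ± 0.14 in Pik3ca/Trp53, 1.67 ± 0.14 in cyst-derived Apc/Trp53, -0.18 ± 0.14 in Apc/Trp53, -0.32 ± 0.15 in Trp53 loss and -0.61 ± 0.15 in control organoids. Pik3ca/Trp53 and cyst-derived Apc/Trp53 organoids were 0.02 apart and both stood above the other 4 arrays, 1.48 over the next. No neighbours among those 4 differed by more than 2 spot errors. The range was 2.30 log2 units, or 4.93-fold.

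H2-DMa (17:34119693-34139101), the alpha chain of H2-M, had a level of -2.99 ± 0.18 in tumour-derived Pik3ca/Trp53 organoids, -2.28 ± 0.16 in Pik3ca/Trp53, -1.72 ± 0.15 in cyst-derived Apc/Trp53, -3.07 ± 0.17 in Apc/Trp53, -3.34 ± 0.20 in Trp53 loss and -3.27 ± 0.19 in control organoids. As with Cd74, the upper 2 arrays were those of cyst-derived Apc/Trp53 and Pik3ca/Trp53 organoids, here 0.56 apart and past 2 spot errors, and the other 4 were not resolved from each other as neighbours. A second probe of the gene, for another transcript, was dim on all arrays. H2-DMb1 (17:34153191-34160229), the beta chain of H2-M, had a level of 0.35 in tumour-derived Pik3ca/Trp53 organoids, 0.67 in Pik3ca/Trp53, 1.76 in cyst-derived Apc/Trp53, 0.38 in Apc/Trp53, 0.76 in Trp53 loss and 1.02 in control organoids, each ± 0.14. It was highest in cyst-derived Apc/Trp53 organoids, 0.74 over control, and no other neighbours in its order differed by more than 2 spot errors. Below that array, levels of H2-DMb1 ran from 1.02 (control) to 0.35 (tumour-derived Pik3ca/Trp53). Its range of 1.41 log2 units (2.65-fold) was the narrowest of the 4.

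**Figure D1:**
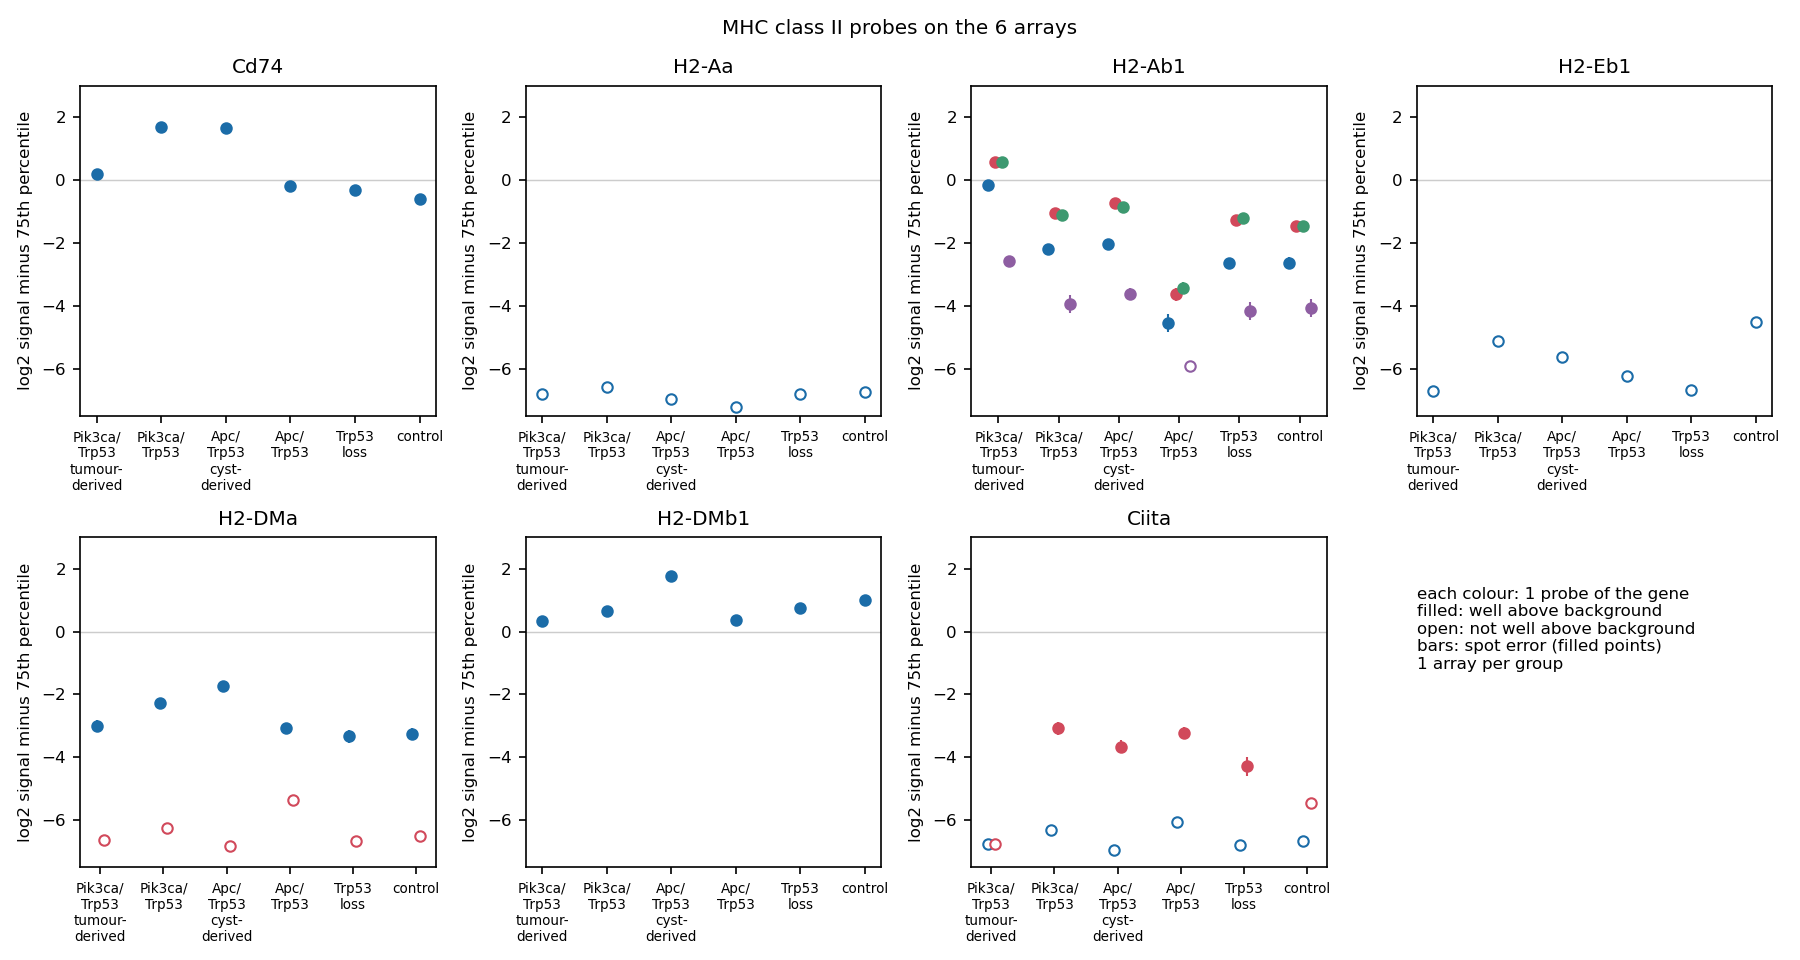
Level of each probe of the 7 class II genes on the 6 arrays (log2 processed intensity relative to the array's 75th percentile), with the spot error; open marks are signals not well above background. Cd74 reaches 1.69 and 1.67 in Pik3ca/Trp53 and cyst-derived Apc/Trp53 organoids, the 4 H2-Ab1 probes run in parallel, and H2-Aa and H2-Eb1 stay dim on every array.

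The start regions of H2-DMb1, H2-Aa and H2-Eb1 are shown because these genes were above background on all arrays (H2-DMb1) or on none (H2-Aa, H2-Eb1). Class II promoters are known for an X box, bound by the RFX complex, and a Y box, bound by NF-Y. Each sequence runs from 150 bases before to 10 bases after the annotated start in RefSeq, build GRCm38.p6, read 5′ to 3′ on the gene's strand. Capitals mark CCAAT on either strand (ATTGG is its reverse complement) and the core of the X box, CCTAGNNAC in H2-DMb1 and CTAGNAAC in H2-Eb1. H2-DMb1 lies at chr17:34153041-34153200 on the plus strand, H2-Aa at chr17:34287814-34287973 on the minus strand and H2-Eb1 at chr17:34305717-34305876 on the plus strand.
H2-DMb1: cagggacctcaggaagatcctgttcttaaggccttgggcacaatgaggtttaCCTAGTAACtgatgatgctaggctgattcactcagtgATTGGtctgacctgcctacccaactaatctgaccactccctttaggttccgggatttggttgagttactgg
H2-Aa: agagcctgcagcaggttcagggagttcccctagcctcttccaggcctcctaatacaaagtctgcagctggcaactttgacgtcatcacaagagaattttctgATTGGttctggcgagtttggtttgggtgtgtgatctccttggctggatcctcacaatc
H2-Eb1: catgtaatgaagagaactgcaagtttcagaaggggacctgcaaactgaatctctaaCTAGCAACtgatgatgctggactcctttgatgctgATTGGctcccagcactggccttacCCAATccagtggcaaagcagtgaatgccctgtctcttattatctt
Both strands of the 300 bases from 250 before to 50 after the start were searched in H2-DMb1, H2-DMa, H2-Aa and H2-Eb1. Cd74, H2-Ab1 and Ciita were not searched. H2-DMb1 held CCTAGNNAC 98 to 90 bases before the start and CCAAT, on the other strand, 61 to 57 bases before it. H2-Eb1 held no CCTAGNNAC. A looser form, CTAGNAAC, chosen after the sequences were seen and overlapping the stricter one, stood 94 to 87 bases before its start, with CCAAT on the other strand 59 to 55 bases before it. H2-Aa held CCAAT 48 to 44 bases before its start and no match to either X core. In H2-DMa, with 2 annotated starts, the sole match was CCAAT 198 to 194 bases before the second start, and none of these 4 genes held TTCNNNGAA, the core of the interferon gamma activated site. Of 32851 start windows of this length, 37.4% held CCAAT, 3.91% CCTAGNNAC, 3.62% CTAGNAAC and 8.30% TTCNNNGAA. The looser X core followed within 50 bases by CCAAT on the other strand was in 18 windows (0.0548%), among them H2-DMb1, H2-Eb1 and H2-Ob. This pairing was also chosen after the sequences were seen, so finding H2-DMb1 and H2-Eb1 among the 18 is no test.

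The effect of adding the Pik3ca mutant was read from Pik3ca/Trp53 organoids against Trp53 loss organoids. Cd74, Ciita and H2-DMa were higher, and H2-Ab1 and H2-DMb1 were nearly level. Of the 5 members measured here, 3 were higher by 2-fold or more and 0 lower, where 9.15% of 14237 genes were 2-fold higher and 8.54% were 2-fold lower. Such counts use signals as measured, so a gene counted as 2-fold apart can have a bound under 2-fold. Cd74 was 2.01 ± 0.20 log2 units (4.03-fold) higher, a difference that 491 genes passed. Ciita was 1.21 ± 0.37 (2.31-fold) and H2-DMa 1.06 ± 0.26 (2.08-fold) higher. H2-Ab1 differed by 0.25 ± 0.14, with all 4 probes above 0 (0.11 to 0.43), and H2-DMb1 by -0.09 ± 0.20. The members' median was 1.06, against 0.01 over all genes. With normexp background correction H2-DMa and Ciita came to 0.59 and 0.51, and with their dim second probes averaged in to 0.75 and 0.85, all under 2-fold.

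Some genes of the class I and interferon gamma lists were also higher in Pik3ca/Trp53 than in Trp53 loss organoids. Of 11 measured class I pathway genes, 5 were at least 2-fold higher and 0 lower (median 0.97). Among them were Psmb9 and Psmb8, subunits of the immunoproteasome that cuts class I peptides, 6.91-fold and 6.58-fold higher, and the peptide transporter gene Tap1, 4.43-fold. Of 11 measured interferon gamma pathway genes, 6 were at least 2-fold higher and 0 lower (median 1.56). The interferon-induced GTPase genes were higher: Gbp4 at least 10.3-fold, Gbp3 9.09-fold and Gbp2 6.80-fold. Gbp4 was dim in Trp53 loss organoids and could pass in that direction only. Over the 10 interferon gamma genes above background on both arrays the median was 1.06. Of 10 class II transcription genes, 0 were 2-fold apart (median 0.19). Irf1, an interferon-induced factor that acts on Ciita, differed by 0.33 log2 units, the RFX genes Rfx5, Rfxap and Rfxank by -0.89, -0.09 and 0.13, and Nlrc5, the coactivator of class I genes, by 0.97. The interferon gamma receptor genes Ifngr1 and Ifngr2 differed by 0.03 and 0.55. The Ifng probe was dim on all 6 arrays. Of 10 measured antigen processing genes, 0 were 2-fold higher and 2 were lower, the endosomal proteases Lgmn (2.97-fold) and Ctsl (2.58-fold), with a list median of -0.16. Of 3 measured costimulation genes 1 was at least 2-fold higher, Cd274, which encodes PD-L1, at least 2.43-fold (list median -0.07). Cd274 was dim in Trp53 loss organoids and could pass in that direction only.

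Tumour-derived Pik3ca/Trp53 organoids were then compared with the Pik3ca/Trp53 organoids they came from. H2-Ab1 was higher and Cd74 lower, and Ciita was not above background in the tumour-derived organoids. The Pik3ca/Trp53 array enters this comparison and the one before it with opposite sign. Of the 5 members measured, 1 was higher by 2-fold or more and 2 lower, where 14.6% of 14727 genes were higher and 10.4% lower. H2-Ab1 was 1.68 ± 0.12 log2 units (3.20-fold) higher, with its 4 probes at 1.37 to 2.06 (SD 0.286). Cd74 differed by -1.50 ± 0.20 (2.83-fold lower). Ciita, dim in the tumour-derived organoids, was at least 2.79-fold lower, and since it was measured through its higher array alone it could pass in that direction only. H2-DMa differed by -0.71 ± 0.24 and H2-DMb1 by -0.32 ± 0.20. The members' median was -0.71, against -0.04 over all genes. Ciita came to -0.95 with normexp correction, under 2-fold.

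Of the class I list 0 of 11 genes were 2-fold apart in this pair (median -0.13), and of the interferon gamma list 1 of 11 was lower, Gbp4 (2.48-fold, list median -0.17). In the class II transcription list 0 of 10 were 2-fold apart (median 0.05), with Irf1 at -0.49, Rfx5 at -0.58, Rfxap at 0.09 and Rfxank at 0.61. Ifngr1 differed by -0.17 and Ifngr2 by -0.12. Nlrc5 has no settled direction here: its 2 probes averaged 0.56, its sole probe above background on both arrays differed by -1.76, and with the dim signal of the other at the floor the average was -0.47. By the probe above background on both arrays it would be 1 class I gene past 2-fold. Of 10 antigen processing genes 1 was higher and 1 lower (median 0.05): Ctsl was 3.91-fold higher and Ifi30, a thiol reductase of the endosome, 2.27-fold lower. Of 4 measured costimulation genes 2 were higher and 1 lower (median 0.66): Cd274 was 3.62-fold higher and Icosl at least 2.55-fold lower. Icosl, dim in tumour-derived Pik3ca/Trp53 organoids, could pass only as lower, and Cd40, dim in Pik3ca/Trp53 organoids, only as higher. Cd40 was counted as higher on signals as measured, but was dim in Pik3ca/Trp53 organoids, and with that signal at the floor its difference was -0.13, so no bound can be given. H2-Oa, a chain of the H2-O molecule that holds H2-M in check, was above background in tumour-derived Pik3ca/Trp53 organoids alone, at least 2.65-fold higher. H2-Oa could pass in that direction only.

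Adding the Apc allele was read from Apc/Trp53 against Trp53 loss organoids, with the same Trp53 loss array as for the Pik3ca mutant. H2-Ab1 was lower and Ciita higher, and Cd74 and both H2-M chains were within 2-fold. Of the 5 members measured, 1 was higher by 2-fold or more and 1 lower, where 5.43% of 14463 genes were higher and 5.19% lower. H2-Ab1 differed by -2.06 ± 0.22 log2 units as measured, with its probes at -2.36 to -1.75. 1 probe was dim in Apc/Trp53 organoids: the difference was -1.80 with that signal at the floor (at least 3.49-fold lower) and -2.16 on the 3 probes above background on both arrays. Ciita was 1.08 ± 0.35 (2.11-fold) higher. Cd74 differed by 0.14 ± 0.20, H2-DMa by 0.27 ± 0.26 and H2-DMb1 by -0.38 ± 0.20. The members' median was 0.14, against 0.03 over all genes. With normexp correction H2-Ab1 came to -0.86 and Ciita to 0.34, and Ciita came to 0.90 with its dim second probe averaged in, all under 2-fold.

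The class I list had 0 of 11 genes 2-fold apart (median 0.08). The interferon gamma list had 3 of 11 higher and 0 lower (median 0.41): Gbp4 at least 2.03-fold, the chemokine gene Cxcl10 2.88-fold and the feedback inhibitor gene Socs1 2.31-fold. Gbp4, dim in Trp53 loss organoids, could pass in that direction only. In the class II transcription list (median -0.28) 1 of 10 was lower, Rfx5, 3.49-fold, beside Irf1 at -0.54, Rfxap at -0.26 and Rfxank at -0.30. Nlrc5 differed by 0.02, Ifngr1 by -0.61 and Ifngr2 by -0.14. Of 10 antigen processing and 3 costimulation genes measured, 0 were 2-fold apart (medians 0.04 and -0.20).

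Cyst-derived Apc/Trp53 organoids were higher in most members than the Apc/Trp53 organoids they came from, whose array also enters the comparison with Trp53 loss, with opposite sign. Of the 5 members measured, 4 were at least 2-fold higher and 0 lower, where 11.3% of 14888 genes were higher and 8.03% lower. H2-Ab1 was 2.58 ± 0.21 log2 units higher as measured, with probes at 2.30 to 2.92. With the dim signal of 1 probe in Apc/Trp53 organoids at the floor it was 2.32 higher (at least 4.99-fold), and on the other 3 probes 2.67. Cd74 was 1.85 ± 0.20 (3.60-fold), H2-DMb1 1.38 ± 0.20 (2.59-fold) and H2-DMa 1.35 ± 0.22 (2.55-fold) higher. Ciita differed by -0.45 ± 0.27. The members' median was 1.38, against -0.03 over all genes. With normexp correction H2-Ab1 came to 1.09 and H2-DMa to 0.76, and H2-DMa came to -0.07 when its dim second probe was averaged in. With arrays scaled to their medians, the median of all genes in this pair was -0.37 and the members' median 1.04.

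**Figure D2:**
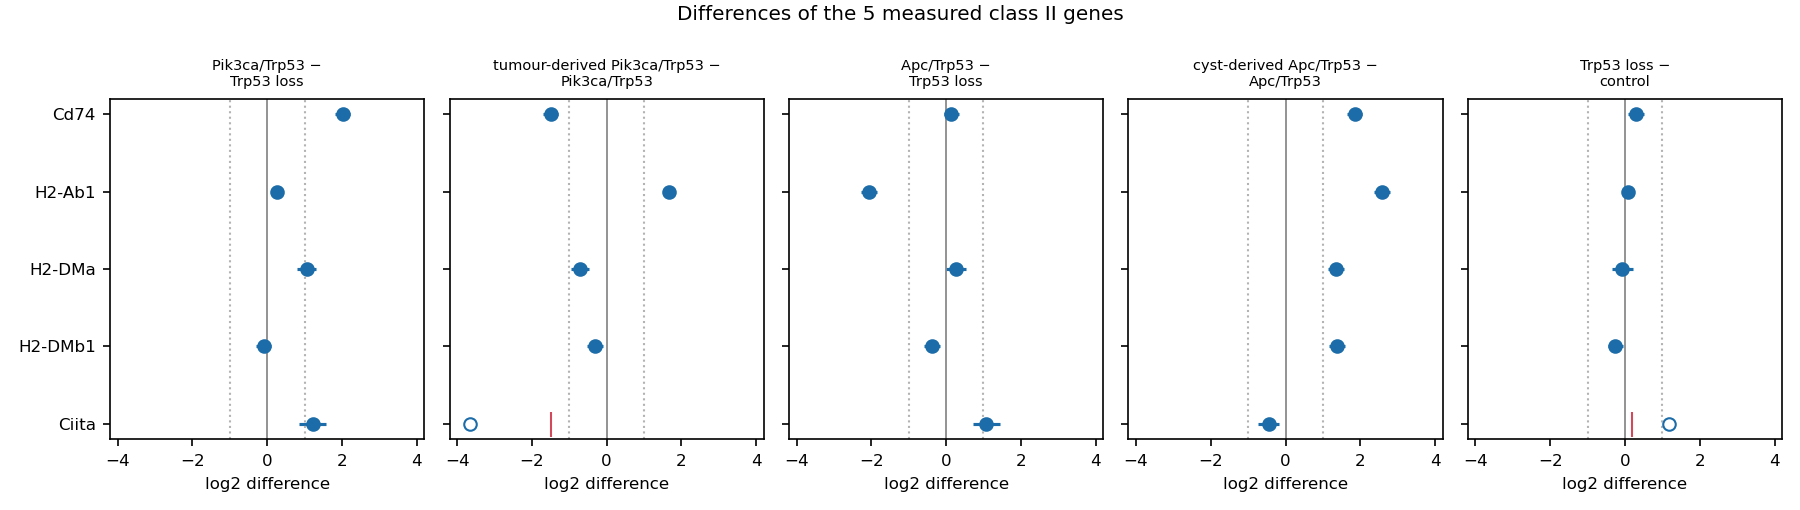
Differences of the measured class II genes in the 5 comparisons, in log2 units with the combined spot error, where a positive value is higher in the group named first; an open mark rests on a dim signal and a red tick is its bound, and dotted lines mark 2-fold. H2-Ab1 lies at -2.06 in Apc/Trp53 against Trp53 loss and at 2.58 in cyst-derived Apc/Trp53 against Apc/Trp53, and Cd74 lies on opposite sides of 0 for the 2 genotypes grown in the animal.

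In the same pair, 7 of 11 class I genes were at least 2-fold higher and 0 lower (median 1.70), with Psmb8 at 8.69-fold, Psmb9 at 6.79-fold and the peptide transporter gene Tap2 at 5.27-fold. Of 11 interferon gamma genes 5 were higher and 0 lower (median 0.25), with the GTPase genes Gbp3, Igtp and Irgm1 at 8.25-fold, 4.95-fold and 3.05-fold. In the class II transcription list (median 0.16) 1 of 10 was higher, Rfx5 at 2.15-fold, beside Irf1 at 0.54, Rfxap at 0.01 and Rfxank at 0.33. Nlrc5 was 3.26-fold higher, and Ifngr1 and Ifngr2 differed by -0.04 and 0.25. Of 10 antigen processing genes 1 was lower, Ctsl, 7.08-fold (median 0.08). Of 5 costimulation genes 3 were higher (median 1.32): Pdcd1lg2, which encodes PD-L2, at least 2.90-fold, Cd274 2.59-fold and Cd40 at least 1.51-fold. Pdcd1lg2 and Cd40 were dim in Apc/Trp53 organoids and could pass in that direction only. Over the 3 costimulation genes above background on both arrays the median was 0.46.

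Trp53 loss organoids were compared with control organoids for the loss of Trp53 alone. The 4 members above background on both arrays were within 2-fold. Cd74 differed by 0.29 ± 0.21 log2 units, H2-Ab1 by 0.08 ± 0.14 with 2 of 4 probes above 0, H2-DMa by -0.07 ± 0.28 and H2-DMb1 by -0.25 ± 0.20. Ciita, dim in control organoids, was 1.17 higher as measured and at least 1.13-fold higher by its bound, and it could pass only in that direction. That made 1 of 5 members at least 2-fold higher as measured and 0 lower, where 5.86% of 14361 genes were higher and 7.58% lower. The members' median was 0.08, against 0.03 over all genes. In the lists, Rfx5 was 2.43-fold higher, Tap1 2.64-fold lower and Gbp4 at least 3.93-fold lower. H2-Ob, the beta chain of H2-O, was above background in Trp53 loss organoids alone, at least 1.76-fold above control. Gbp4 was dim in Trp53 loss and H2-Ob in control organoids, so each could pass in its given direction only. The list medians were -0.11 for class I, -0.23 for interferon gamma and 0.08 for class II transcription, where Tap1, Gbp4 and Rfx5 were the sole genes past 2-fold. Of 10 antigen processing and 4 costimulation genes, 0 were 2-fold apart (medians 0.11 and -0.58). Cd40 and Cd274 were dim in Trp53 loss organoids and entered through the control array alone. Over the 2 costimulation genes above background on both arrays the median was -0.10. Irf1, Rfxap and Rfxank differed by 0.19, 0.29 and 0.04, and Nlrc5, Ifngr1 and Ifngr2 by -0.44, -0.39 and -0.36.

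**Figure D3:**
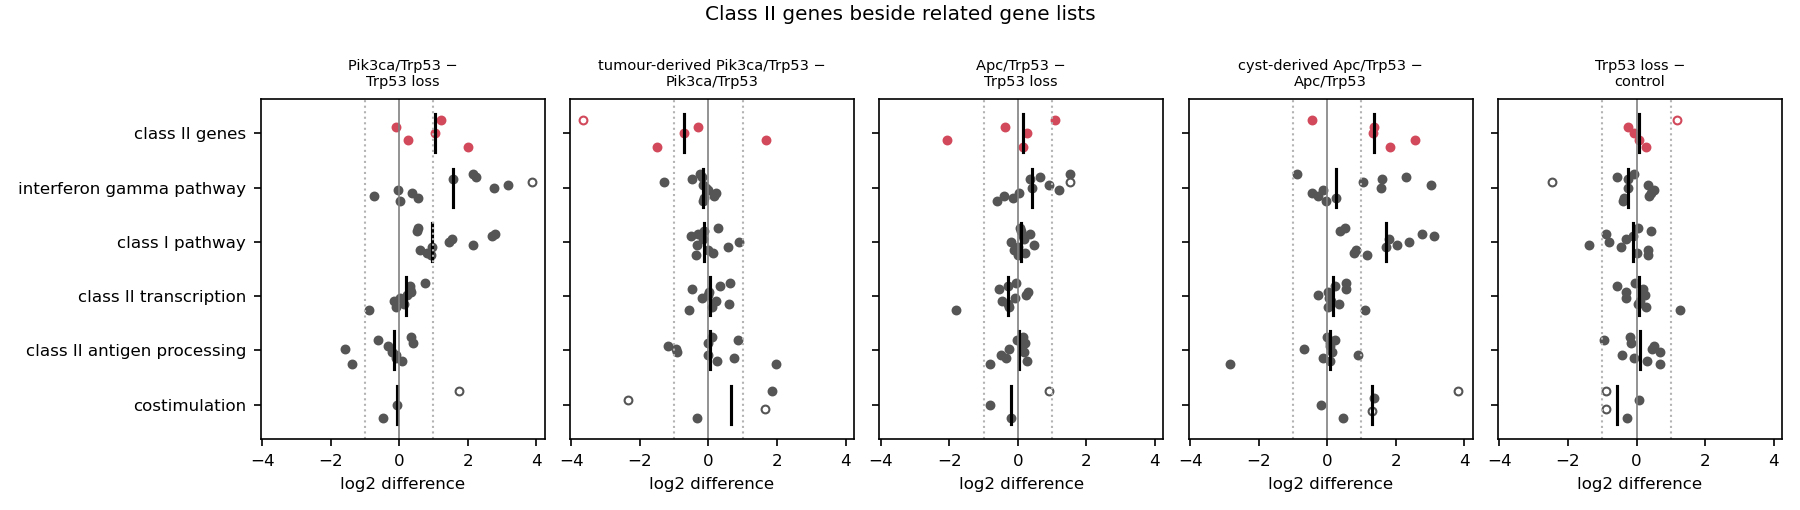
Difference of each measured gene of the class II members and of the lists around them in the 5 comparisons (log2 units, group named first minus the other), with the list's median as a bar and 2-fold as dotted lines. Class I medians are 0.97 in Pik3ca/Trp53 against Trp53 loss and 1.70 in cyst-derived Apc/Trp53 against Apc/Trp53, and lie between -0.13 and 0.08 in the other 3 comparisons.

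A limma fit set both cultures from subcutaneous growths against their sources, blocked on genotype, which left 1 degree of freedom. It called 0 of 14219 genes (0.0%) at an adjusted p of 0.05, with 544 at an unadjusted p under 0.05. H2-Ab1 was 2.13 log2 units (SE 0.382) higher, in both genotypes, with a limma adjusted p of 0.999 (0.725 to 0.999 over the alternatives). The other members differed by 0.17 (Cd74), 0.32 (H2-DMa), 0.53 (H2-DMb1) and -2.06 (Ciita). With normexp correction H2-Ab1 came to 1.14 and Ciita, which was dim in tumour-derived Pik3ca/Trp53 organoids, to -0.60. A second fit set the 3 Trp53-deficient cultures before inoculation against the control and called 0 of 15025 genes (0.0%), with 1275 at an unadjusted p under 0.05. There Ciita was 1.94 log2 units (SE 0.598) higher, with a limma adjusted p of 0.536 (0.321 to 0.995 over the alternatives), and Cd74 was 1.01 higher with a limma adjusted p of 0.828. The Ciita value rests on a dim control signal and came to 0.46 with normexp correction, and Cd74 came to 0.36 without the Pik3ca/Trp53 array. H2-Ab1 differed by -0.53 with a limma adjusted p of 0.909, and by 0.20 without the Apc/Trp53 array. The control's own spread is taken in this fit to be that of the other 3 cultures.

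Leukocyte markers were read on the same arrays, since class II genes are made by antigen-presenting cells. Of 22 such markers, 6 to 8 were above background per array, and 13 on none. Those on none included Itgax, Adgre1, Fcgr1, Tyrobp, Coro1a, Cd52, Spi1, Flt3 and Zbtb46, which mark dendritic cells, macrophages or leukocytes in general, and the B cell genes Cd79a and Ms4a1. Cd14, Cd68, Csf1r, Fcer1g, Itgam and Cd3e were above background on all 6 arrays by at least 1 probe. A second Itgam probe was dim on all 6 arrays, so values of Itgam rest on its other probe. A second Cd3e probe was above background in tumour-derived Pik3ca/Trp53 and cyst-derived Apc/Trp53 organoids alone. The summed signal of the list was 57.9 times the 75th percentile in tumour-derived Pik3ca/Trp53 organoids, 22.8 in Pik3ca/Trp53, 11.4 in cyst-derived Apc/Trp53, 19.6 in Apc/Trp53, 33.6 in Trp53 loss and 74.97 in control organoids. Most of each sum was Cd14, which gave 51.0 in tumour-derived Pik3ca/Trp53, 17.8 in Pik3ca/Trp53, 9.67 in cyst-derived Apc/Trp53, 15.4 in Apc/Trp53, 23.0 in Trp53 loss and 61.2 in control organoids. The other 21 genes together gave 1.74 (cyst-derived Apc/Trp53) to 13.8 (control). 1 of 2 probes of Ptprc, the pan-leukocyte gene for CD45, was above background in cyst-derived Apc/Trp53 organoids alone, at -3.12 and at least 3.44-fold above Apc/Trp53 organoids. Lyz2, a lysozyme gene of macrophages, was above background in Pik3ca/Trp53 organoids alone, at -3.55. Laptm5, a lysosomal gene of leukocytes, was above background in Pik3ca/Trp53, Apc/Trp53, Trp53 loss and control organoids. In tumour-derived Pik3ca/Trp53 organoids, where H2-Ab1 was highest, Cd14 was 2.88-fold and Itgam 2.03-fold above Pik3ca/Trp53 organoids, and Ptprc, Lyz2 and Laptm5 were dim. Fibroblast and endothelial markers above background numbered 5 of 10 in tumour-derived Pik3ca/Trp53, 2 in Pik3ca/Trp53, 5 in cyst-derived Apc/Trp53, 3 in Apc/Trp53, 2 in Trp53 loss and 3 in control organoids. Pdgfra was at least 7.80-fold higher in cyst-derived Apc/Trp53 than in Apc/Trp53 organoids. In the Pik3ca/Trp53 pair its probes disagreed. A_51_P345649 was at -0.99 in tumour-derived organoids against a dim -5.69 in their source. A_55_P2735715 was dim at -4.45 in tumour-derived organoids against -3.54 in their source. Their average with dim signals at the floor was 2.26-fold higher, which is not a bound. Col1a1 and Col1a2 were above background in tumour-derived Pik3ca/Trp53 organoids alone. There Col1a1 was at least 1.23-fold above Pik3ca/Trp53 organoids, and its probe A_66_P101466 was dim on all 6 arrays. Dcn, Lum and Tek were dim on all 6 arrays. Cdh5 was above background on all 6, at -0.38 in Apc/Trp53 and -2.80 in cyst-derived Apc/Trp53 organoids. Of 5 such markers measured in the Pik3ca/Trp53 pair, 3 were at least 2-fold higher as measured and 0 lower. Over all genes in that pair, 14.6% were higher and 10.4% lower. Col1a1, Col1a2 and Pecam1 were dim in Pik3ca/Trp53 organoids and could pass only as higher. Of 5 in the Apc/Trp53 pair, 2 were higher and 1 lower, where 11.3% of all genes were higher and 8.03% lower. The higher markers, Pdgfra and Pdgfrb, were dim in Apc/Trp53 organoids and could pass only as higher. Pdgfrb had a bound of 1.73-fold. The part of other cell types in the class II levels was not tested.

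**Figure D4:**
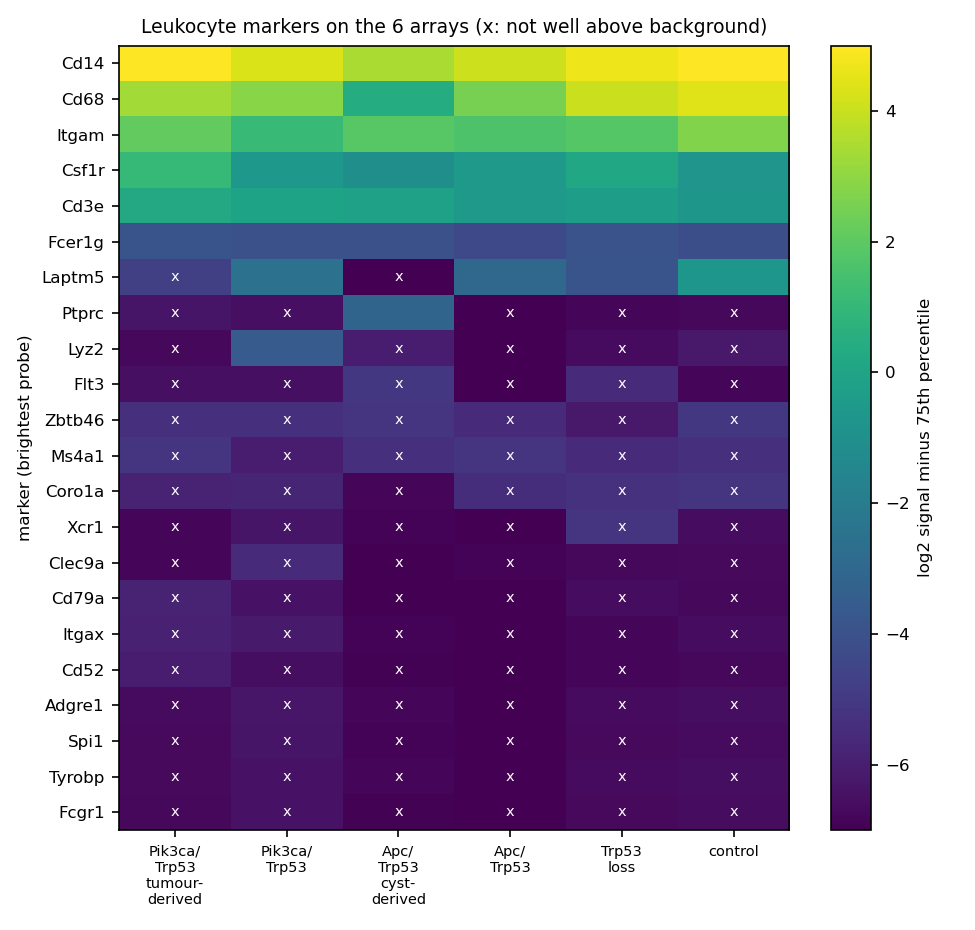
Level of 22 leukocyte markers (brightest probe of each) on the 6 arrays, as log2 processed intensity relative to the array's 75th percentile; crosses are signals not well above background. 13 markers are crossed on every array, and Ptprc is measured in cyst-derived Apc/Trp53 organoids alone.

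Likeness to Cd74 was taken as Pearson's r over the 6 arrays, among 5593 genes above background on all of them with a range of at least 1 log2 unit. The 8 most alike were Exoc3l4 (0.993), AW112010 (0.988), H2-Q7 (0.988), Pdk3 (0.987), Abracl (0.985), Rnf213 (0.982), Slc15a2 (0.980) and Ccdc189 (0.980). H2-Q7 encodes a class I molecule. Among the members, H2-DMa had r = 0.948, with 41 genes above it, H2-DMb1 0.447 and H2-Ab1, on its 3 probes above background on all arrays, 0.281. These describe 6 arrays that share a slide, in which each tumour- or cyst-derived culture descends from another of the 6.

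**Figure D5:**
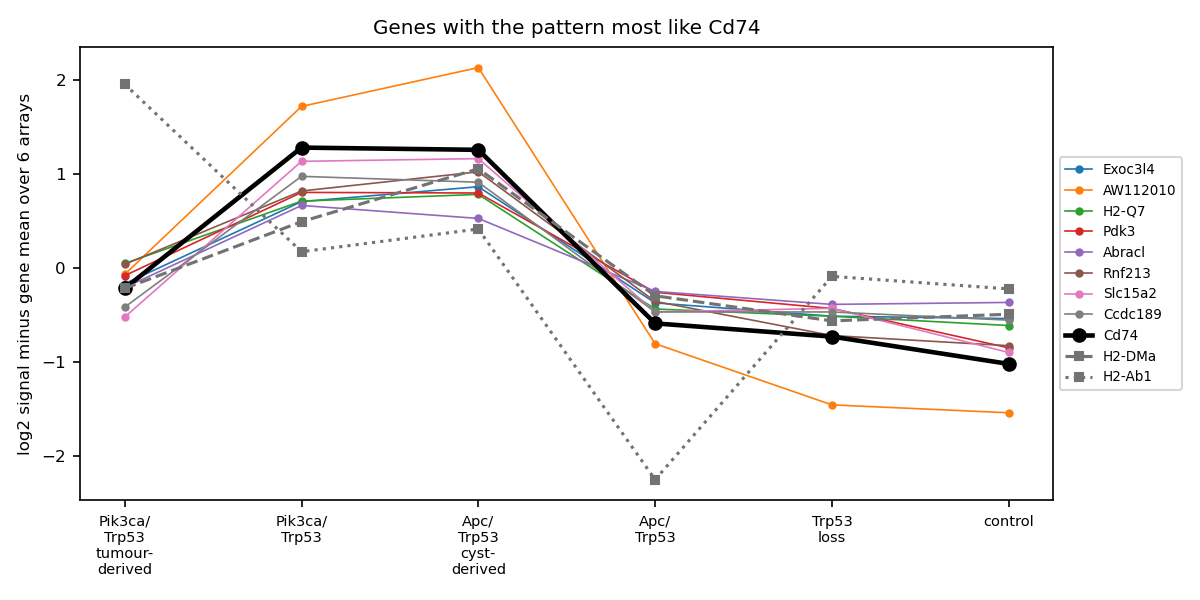
Levels over the 6 arrays of Cd74, of the 8 genes most like it and of H2-DMa and H2-Ab1, each relative to its own mean (log2 units). The 8 genes peak with Cd74 in Pik3ca/Trp53 and cyst-derived Apc/Trp53 organoids, whereas H2-Ab1 peaks in tumour-derived Pik3ca/Trp53 organoids.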

How the data were processed

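Total RNA was labelled with Cy3 and hybridised to 6 Agilent arrays, per the labels' protocols. Agilent Feature Extraction 11.0.1.1 made the scanner files, as the submitters' processing notes and the headers say. In these deposited files each spot has an intensity with its background subtracted, its error and its flags, and arrays were not scaled to each other. A further deposited table gives log2 values for 2047 probes, of which H2-Ab1 has 3. Its differences equal those of the log2 intensities up to a constant, and its centring is not stated. Its medians were -0.05, 0.15, -0.20, -0.32, -0.02 and 0.03 for tumour-derived Pik3ca/Trp53, Pik3ca/Trp53, cyst-derived Apc/Trp53, Apc/Trp53, Trp53 loss and control.

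Control spots and outlier spots (58 to 238 per array) were left out, no spot was saturated, and spots of a probe were averaged after log2 scaling to the 75th percentile. Probes printed in 10 copies had a median SD between copies of 0.04 to 0.08. Probes were named through RefSeq accessions (those of GRCm38.p6). A gene's difference is the mean over its probes that 1 or both of the 2 arrays read well above background. A gene read through 1 array alone could therefore pass 2-fold only as higher on that array. There were 5 comparisons, without a test, counted at 2-fold on signals as measured. They share arrays: Trp53 loss enters 3 of them, and Pik3ca/Trp53 and Apc/Trp53 enter 2 each. The 2 limma fits used lmFit and eBayes with Benjamini-Hochberg adjustment over all genes, on genes above background on at least 2 or 1 of 4 arrays, and were tested on simulated data. Pairing by genotype comes from the labels, since each culture from a subcutaneous growth has its source among the samples. The correlation of same-genotype deviations says nothing with 1 array per group. Of the 3 pairs in the study's design, 2 were analysed here.

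The members and lists were chosen with earlier results of these data known. Named list genes are up to 3 per list and comparison with the largest differences past 2-fold, plus Rfx5, Rfxap, Rfxank, Nlrc5, Irf1, Ifngr1 and Ifngr2. Of 109 list genes, 3 had no named probe. Some listed genes are not reported here, and counts and medians of lists leave them out. Leukocyte and fibroblast markers were named after their values were seen. Alternatives were median and quantile scaling, other percentiles, normexp with an offset of 50, other filters on dim probes and the brightest probe. The files hold no mean signal, so normexp took the median signal in its place. Tools were Python 3.11.15 (pandas 2.3.3, numpy 2.4.6, matplotlib 3.10.9) and R 4.3.3 (limma 3.58.1 and data.table, version 1.17.8). The number of arrays limits the precision.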

Additional observations from a re-analysis of the deposited data

Results flagged for a closer look

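Among the class II genes, 3 differed in direction between the genotypes after growth in the animal. Cd74 differed by -1.50 log2 units in tumour-derived Pik3ca/Trp53 against Pik3ca/Trp53 organoids and by 1.85 in cyst-derived Apc/Trp53 against Apc/Trp53 organoids. H2-DMa differed by -0.71 and 1.35 in the same comparisons, and H2-DMb1 by -0.32 and 1.38. With 1 array per group the difference between the genotypes was not tested. The -0.32 of H2-DMb1 is under 2 spot errors (0.20), and H2-DMa came to -0.07 in the Apc/Trp53 pair when its dim probe was averaged in.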

How the results depend on the processing

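Of 228 recomputed differences of single members between a pair of arrays (25 results), 185 moved by less than the median SD between probes of a gene, 4 changed sign, 13 fell under 2-fold and 0 newly passed it. The changes of sign were H2-DMb1 in Pik3ca/Trp53 against Trp53 loss (0.02 with normexp), H2-DMa in Trp53 loss against control (0.12 with median and 0.10 with quantile scaling) and H2-DMa in cyst-derived Apc/Trp53 against Apc/Trp53 organoids (-0.066 with its dim probe kept). In the limma fits, signs changed for Cd74 in the paired fit with median scaling (-0.075), for H2-DMa there with all probes kept (-0.31), and for H2-Ab1 in the Trp53 fit, which ranged from -0.95 to 0.20 without 1 culture and was positive without Apc/Trp53. Members' medians moved for Pik3ca/Trp53 against Trp53 loss (0.51 with normexp, 0.75 with all probes kept), for tumour-derived Pik3ca/Trp53 against Pik3ca/Trp53 (-0.43 with normexp), for cyst-derived Apc/Trp53 against Apc/Trp53 (1.04 with median scaling, 1.09 with normexp, 0.61 with all probes kept) and for Trp53 loss against control (0.26 with median scaling, 0.24 with the brightest probe). The cause was not tested. Of the 13 calls that fell under 2-fold, Ciita made 8, and a bound of 0.18 for Ciita in Trp53 loss against control was 1 of them. Quantile scaling raised the genes called in the Trp53 fit to 76, and without any 1 of its 3 Trp53-deficient cultures the count ranged from 0 to 0. Without the replicate block the paired fit also called 0 genes, and H2-Ab1 had the same 2.13.

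Limits: with median scaling, all genes together had medians of -0.21, -0.37 and 0.22 in the comparisons of tumour-derived Pik3ca/Trp53, cyst-derived Apc/Trp53 and Trp53 loss. It turned the counts of genes 2-fold higher and lower to 1250 and 2060, against 1686 and 1196, for cyst-derived Apc/Trp53, to 1923 and 1970, against 2148 and 1537, for tumour-derived Pik3ca/Trp53, and to 1092 and 856, against 841 and 1088, for Trp53 loss. With normexp those of Pik3ca/Trp53 were 667 and 434, against 1303 and 1216. Signals near background limit H2-Aa, H2-Eb1 and Ciita, and 1 array per group limits every difference.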
